A study of Homo sapiens with 6 samples.

Results

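The 10 genes described here encode the main carriers by which a dividing cell takes up glucose and amino acids and releases lactate. They are SLC2A1, SLC2A3, SLC16A1, SLC16A3, SLC1A5, SLC38A1, SLC38A2, SLC7A5, SLC7A11 and SLC3A2. They were chosen by symbol from a table of 57150 genes, in which each of these symbols has 1 row. The study transfected K562 cells, a human erythroleukemia line, with siRNAs that target αCP1 and αCP2 together (the group labelled KD, 3 pools) or with control siRNAs (the group labelled CTRL, 3 pools), and made RNA-seq libraries from cells harvested 72 h later. By the study's methods, a pair of the control siRNAs were directed at an unrelated mRNA, GLD-2, and the other control was non-targeting. The αCPs, also called PCBPs, are RNA-binding proteins with a preference for C-rich sequence, and the study asked how their loss alters alternative splicing.

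The table gives 1 FPKM value (fragments mapped to a gene, scaled by transcript length and library size) and 1 estimated fragment count for each gene and group. The 3 libraries of a group are not separated in it, so the spread between pools is unknown and the ratios below carry no test. All intervals below treat the estimated counts as fragments counted and cover no other error. Total counts were 13699340 for KD and 11680567 for CTRL. Both totals are smaller than the mapped read pairs that the study lists for any single library. The counts are thus not the number of fragments sequenced. How they were scaled is not given in the sources used here, so the true counting error may differ from these intervals. By FPKM the targeted genes showed no clear depletion in the column labelled KD (the KD column) against the column labelled CTRL (the CTRL column). PCBP1 (αCP1) had an FPKM of 184 in the KD column and 188 in the CTRL column, and PCBP2 (αCP2) had 531 and 342. As shares of the column totals, a scale set out below, their log2 ratios were -0.25 (-0.32 to -0.19) and 0.37 (0.32 to 0.42). The median of all genes on that scale was -0.21. With the GC and length fit described below subtracted, the FPKM ratios were -0.29 and 0.61. The study reports depletion at the mRNA and protein levels after transfection, with a representative Western blot. Of 17 erythroid and hematopoietic markers, 9 were listed at 0 in both columns, among them GATA1, KLF1 and TAL1, and 11 were under an FPKM of 1 in both. Their summed FPKM was 170 in the KD column and 45.4 in the CTRL column, most of it from the embryonic globin HBE1. EPOR had 3.55 and 5.08. Of 8 epithelial markers (summed FPKM 4370 and 3190), 4 were over 5 in both columns, with KRT18 at 2309 and 1748. Another 3 were under 1 in both, CDH1 at 0.363 and 0.426, and KRT19 and ESRP1 at 0. EPCAM had 3.94 and 3.26. Of 8 fibroblast markers, 0 were over 5 in both columns (13.2 and 7.17 summed), and COL1A2, LUM and PDGFRA were at 0. In this table the FPKM of PCBP1 and PCBP2 goes against the label of a co-depletion, and differs from the depletion that the study reports. The 9 erythroid and hematopoietic markers at 0 go against the label K562, while HBE1 was present. The epithelial markers went both ways, so the keratins do not settle the cell type. Whether the table holds the libraries that the labels describe was not settled here, so each ratio below compares 2 columns by their labels and cannot be taken as an effect of αCP1/2 loss.

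Glucose enters most cells by facilitated diffusion through the SLC2A (GLUT) carriers, and the lactate formed from it leaves with a proton through the SLC16A (MCT) carriers. Glutamine is taken up by SLC1A5 and by the sodium-coupled SLC38A carriers. SLC7A5 and SLC7A11 are exchangers that reach the membrane only when bound to the glycoprotein encoded by SLC3A2. The first exchanges intracellular amino acids for leucine and other large neutral amino acids, and the second exchanges glutamate for cystine, from which glutathione is made.

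All 10 genes had a mean FPKM of at least 1, the minimum used here for ratios, and 8 of them had an FPKM over 5 in both columns. In the CTRL column the order from high to low was SLC3A2, SLC7A5, SLC38A1, SLC38A2, SLC16A1, SLC1A5, SLC16A3, SLC2A1, SLC7A11 and SLC2A3. Neighbours in that order were separated beyond their 95% Poisson counting intervals, except that SLC1A5, SLC16A3 and SLC2A1, at 44.9, 43.4 and 42.3 FPKM, overlapped from one to the next. In the KD column the order was SLC3A2, SLC7A5, SLC16A3, SLC1A5, SLC2A1, SLC16A1, SLC38A1, SLC38A2, SLC2A3 and SLC7A11, and the intervals of SLC1A5 and SLC2A1 overlapped, at 69.1 and 68.4 FPKM. SLC3A2 and SLC7A5 led in both columns, and SLC16A3 was 7th in the CTRL column and 3rd in the KD column. The summed FPKM of the 10 genes was 934 in the KD column and 770 in the CTRL column.

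**Figure D1:**
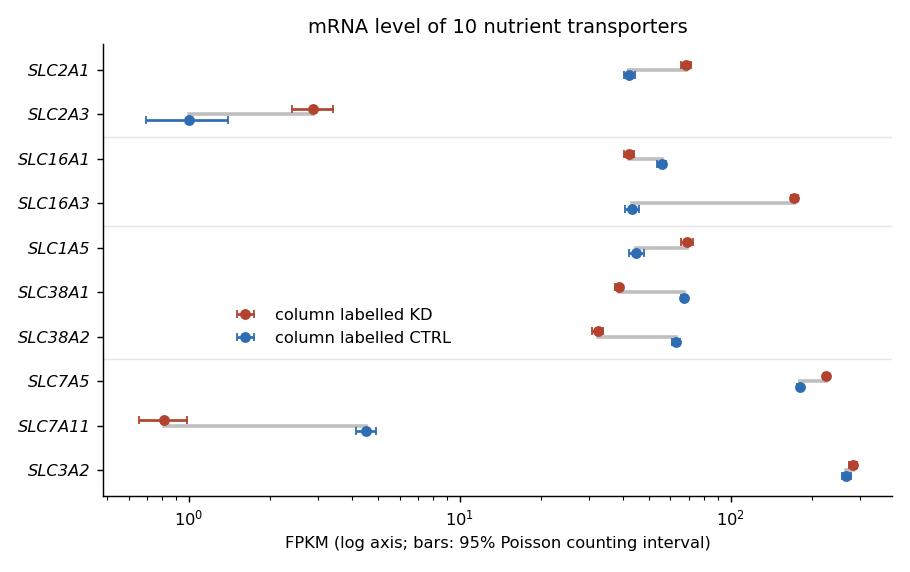
FPKM of each of the 10 transporters on a log axis, with the KD column in red and the CTRL column in blue. Bars are 95% Poisson counting intervals and lines group the glucose carriers, the monocarboxylate carriers, the glutamine carriers and the SLC7 exchangers with SLC3A2. The widest gaps belong to SLC16A3 (172 and 43.4) and SLC7A11 (0.809 and 4.50), in opposite directions.

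Ratios are given as log2 of (FPKM + 1) in the KD column over that in the CTRL column, which understates the difference for low genes. As a second scale, each count was divided by the total of its column. The KD total was 1.17 times the CTRL total, so this division lowers the log2 ratio of every gene by the same amount. Before it, the median gene had nearly equal counts per FPKM in the columns, at a log2 ratio of 0.005. This count-share ratio carries a 95% exact binomial interval. On this scale the median of all genes was -0.21, against 0.015 with FPKM, so values relative to that median are also given, a setting chosen after seeing the data.

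On the FPKM scale 2 of the 10 transporters lay at or past a log2 ratio of 1 in either direction. SLC16A3 was higher in the KD column and SLC7A11 was lower. Over all 13741 genes above the minimum, 11.8% passed the same limit, 8.51% as higher and 3.27% as lower. With so few genes the count is a description, and nothing is read from it about the group. The median log2 ratio of the 10 genes was 0.20, and that of all genes was 0.015. The median size of the ratio, regardless of sign, was 0.73 for the 10 genes and 0.39 for all genes. In these bulk samples, fewer cells of a type and less RNA per cell cannot be told apart.

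SLC2A1 (ENSG00000117394; hg19, chromosome 1, 43391024 to 43424564, minus strand) encodes GLUT1, the glucose carrier of most dividing cells. Its FPKM was 68.4 in the KD column and 42.3 in the CTRL column. On the FPKM scale the log2 ratio was 0.68. Its counts were 2325 and 1653, and the count-share ratio was 0.26 with an interval of 0.17 to 0.35. The level was higher in the KD column on both scales, by less than a log2 ratio of 1.

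SLC2A3 (ENSG00000059804; chromosome 12, 8071826 to 8171603, minus strand) encodes GLUT3, a carrier with a high affinity for glucose best known from neurons. Its FPKM was 2.87 in the KD column and 1.001 in the CTRL column, from 132 and 34 counts. In FPKM this is a log2 ratio of 0.95, just short of 1. The count-share ratio was 1.73 with an interval of 1.17 to 2.32. GLUT1 mRNA remained the more abundant by far, at 23.9 times the FPKM of SLC2A3 in the KD column and 42.2 times in the CTRL column. SLC2A14 is a near-identical copy of SLC2A3 with which reads can be shared, and it had 1 count in the KD column and 0 in the CTRL column. Summed over SLC2A1 and SLC2A3, the FPKM was 71.2 and 43.3.

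SLC16A3 (ENSG00000141526; chromosome 17, 80175810 to 80219005, plus strand) encodes MCT4, the lactate exporter typical of glycolytic and hypoxic cells. Its FPKM was 172 in the KD column and 43.4 in the CTRL column, 3.96-fold higher, from 4173 and 1037 counts. The log2 FPKM ratio of 1.96 lay above that of 98.9% of all genes. The count-share ratio was 1.78 with an interval of 1.68 to 1.88. CSNK1D, which lies on the opposite strand over 22107 bases of the annotated gene, had an FPKM of 47.4 and 54.9, so its level was not higher in the KD column. The locus deposited with the SLC16A3 values is 80186272 to 80231607, so the overlap with the counted locus can differ from this. The library kit was TruSeq RNA V1, whether the authors' counting used strand is not given in the sources used here, and reads shared by overlapping genes may be split.

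SLC16A1 (ENSG00000155380; chromosome 1, 113454469 to 113500215, minus strand) encodes MCT1, which carries lactate in either direction. Its FPKM was 42.2 in the KD column and 55.7 in the CTRL column, from 1962 and 2589 counts. The log2 FPKM ratio was -0.39 and the count-share ratio was -0.63 (-0.72 to -0.54). It thus lay in the opposite direction to SLC16A3, and the order of the pair differed between the columns. SLC16A3 mRNA was 4.06 times as abundant as SLC16A1 mRNA in the KD column, and SLC16A1 was 1.29 times as abundant as SLC16A3 in the CTRL column. The summed FPKM of the pair was 214 and 99.1, of which the difference came from SLC16A3. BSG, the chaperone that both carriers need at the membrane, had an FPKM of 609 and 411, a log2 ratio of 0.57 that was -0.04 once a fit on GC content and length was subtracted. EMB, the other such chaperone, had 0 and 6 counts.

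Promoter sequences from RefSeq (GRCh38.p14; 250 bases before each annotated start and 50 after) were found for 7 of the 10 genes, with 16 starts. SLC2A3, SLC7A11 and SLC16A1 had no entry. They are shown for the motifs through which nutrient carriers are best known to be controlled. The hypoxia response element core ACGTG, on either strand, was in the promoters of SLC16A3, SLC7A5, SLC1A5 and SLC38A1 (4 of the 16 promoters) and in 21.4% of all 35116 promoters. The E-box CACGTG, which contains that core and is bound by MYC, was in those of SLC7A5 and SLC1A5 (2 of 16) and in 7.26% of all. The amino acid response element core TGATGNAA, to which ATF4 binds, was in those of SLC1A5, SLC38A1 and SLC3A2 (3 of 16) and in 3.62% of all. The antioxidant response element core TGACNNNGC was in those of SLC1A5, SLC3A2 and SLC7A5 (3 of 16) and in 13.3% of all. The windows below (GRCh38.p14) are 30 bases each, 5′ to 3′ along the gene, with the motif in capitals. Those of SLC7A5 and SLC1A5 show the E-box, that of SLC38A1 the amino acid response element core, and that of SLC16A3 a pair of hypoxia response element cores upstream of one of its 5 starts.
SLC16A3, chr17:82228968-82228997, plus strand: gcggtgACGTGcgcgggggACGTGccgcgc
SLC7A5, chr16:87869620-87869649, minus strand: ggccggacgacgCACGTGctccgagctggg
SLC1A5, chr19:46787326-46787355, minus strand: ggcgggagtggtCACGTGgacaggacgggg
SLC38A1, chr12:46266502-46266531, minus strand: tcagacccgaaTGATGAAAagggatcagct
SLC16A3 and SLC38A1 lay in opposite directions between the columns. The table does not separate transcripts by start, and a match is a description of these letters only.

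By FPKM ratio, the transcription factors named with these motifs differed less than SLC16A3 and SLC7A11, the members with the largest differences. HIF1A (-0.58) and NFE2L2 differed more than SLC16A1, SLC7A5 and SLC3A2. These are mRNA levels, and the activity of the factors was not measured. HIF1A, a subunit of the factor that binds the hypoxia response element, had an FPKM of 13.8 in the KD column and 21.2 in the CTRL column. MYC had 119 and 112, a log2 ratio of 0.08, while its count-share ratio was -0.14. ATF4 had 214 and 164. NFE2L2, which binds the antioxidant response element, had 57.9 and 83.5, a log2 ratio of -0.52.

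SLC1A5 (ENSG00000105281; hg19, chromosome 19, 47278140 to 47291851, minus strand) encodes ASCT2, a sodium-dependent exchanger and a main route of glutamine into proliferating cells. Its FPKM was 69.1 in the KD column and 44.9 in the CTRL column, from 1599 and 989 counts. On the FPKM scale the log2 ratio was 0.61 and the count-share ratio was 0.46 (0.35 to 0.58). SLC38A1 (ENSG00000111371; chromosome 12, 46576846 to 46663800, minus strand) encodes SNAT1, a sodium-coupled importer of glutamine and alanine. Its FPKM was 38.6 and 67.1, from 3500 and 6060 counts. In FPKM this is a log2 ratio of -0.78 and the count-share ratio was -1.02 (-1.08 to -0.96). SLC38A2 (ENSG00000134294; chromosome 12, 46751971 to 46766556, minus strand) lies in the same region of that chromosome and encodes SNAT2, an importer of small neutral amino acids known for its induction on amino acid starvation. Its FPKM was 32.4 and 62.7, from 1902 and 3638 counts. The log2 FPKM ratio was -0.93 and the count-share ratio was -1.17 (-1.25 to -1.09).

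The 2 SNAT mRNAs were therefore lower and the ASCT2 mRNA was higher in the KD column. SLC1A5 had 2.13 times the FPKM of SLC38A2 in the KD column and 0.715 times in the CTRL column. Against SLC38A1 it was 1.79 times and 0.668 times. SLC38A1 and SLC38A2 kept nearly the same proportion to each other, 1.19 and 1.07. Summed over these 3 glutamine carriers, the FPKM was 140.0 in the KD column and 175 in the CTRL column, a log2 ratio of -0.32.

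SLC7A5 (ENSG00000103257; chromosome 16, 87863629 to 87903113, minus strand) encodes LAT1, the leucine carrier. It had an FPKM of 225 in the KD column and 180.2 in the CTRL column, and with 10892 and 8664 it had the most counts of the 10 genes. On the FPKM scale the log2 ratio was 0.32. The count-share ratio was 0.10 (0.06 to 0.14). SLC7A11 (ENSG00000151012; chromosome 4, 139085251 to 139163503, minus strand) encodes xCT, the cystine-glutamate exchanger. Its FPKM was 0.809 in the KD column and 4.50 in the CTRL column, 5.57-fold lower in the former, from 97 and 540 counts. With 1 added to each FPKM the log2 ratio was -1.61, and 0.859% of all genes had a lower one. With 0.1 added it was -2.34, so its size depends on the value added. The count-share ratio was -2.71 (-3.03 to -2.39), the largest in size of the 10 genes on that scale. Of the 165 SLC genes above the minimum it had the lowest FPKM ratio. SLC7A11-AS1, which overlaps it on the opposite strand, had an FPKM of 0.0353 and 0.0884.

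SLC3A2 (ENSG00000168003; chromosome 11, 62623476 to 62656352, plus strand) encodes the 4F2 heavy chain (CD98) that both exchangers need. Its FPKM was 283 in the KD column and 268 in the CTRL column, a log2 ratio of 0.08. Its counts, 4243 and 2682, differed more. The count-share ratio was 0.43 (0.36 to 0.50). The heavy chain and the leucine carrier were the most abundant of the 10 mRNAs in both columns, and the cystine carrier was the least abundant in the KD column. SLC7A5 mRNA had 40.0 times the FPKM of SLC7A11 in the CTRL column and 279 times in the KD column. CD44, which encodes a surface protein known to stabilise xCT, had an FPKM of 433 and 315, a log2 ratio of 0.46, while its count-share ratio was -0.17 (-0.22 to -0.12).

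The count behind 1 FPKM differed between the columns for some of the genes. For SLC3A2 it was 15.0 fragments per FPKM in the KD column and 10.02 in the CTRL column, for SLC2A3 it was 46.1 and 34.0, and for SLC2A1 it was 34.0 and 39.1. A difference as large as that of SLC3A2 was found in 3.74% of 13626 genes with a count in both columns. In 5 of the 10 genes the log2 ratio of raw counts and of FPKM, both without a pseudocount, was the same within 0.02, as in SLC16A1 and SLC7A11. The annotation used here for gene models (GENCODE release 44) holds 41 transcripts of SLC3A2, against 2 of SLC7A11. The study mapped reads to Ensembl transcripts, so these need not be the transcripts that Cuffdiff summed. Cuffdiff sums FPKM over transcripts of unequal length, and the part of transcript choice in these differences was not tested.

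**Figure D2:**
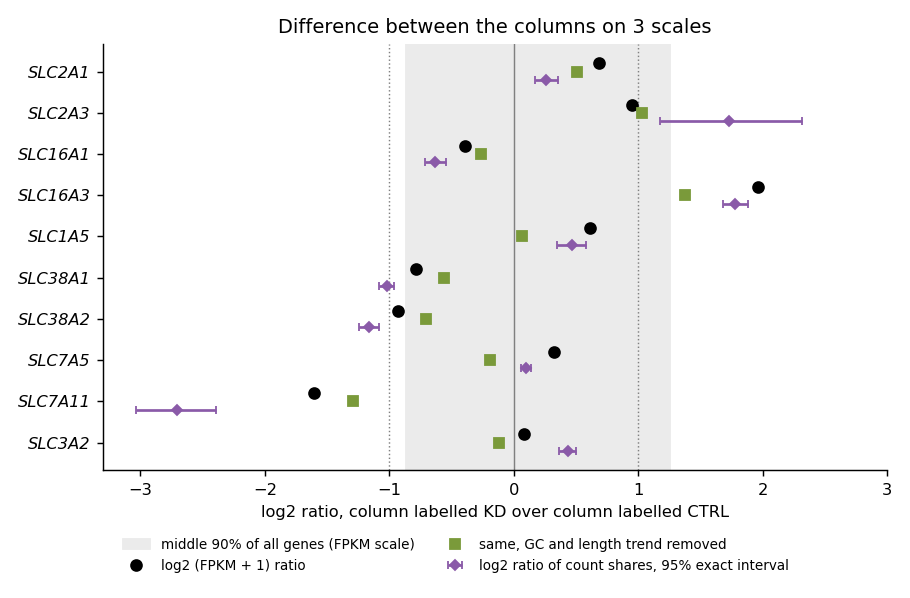
Log2 ratio of the KD column over the CTRL column for the 10 transporters on 3 scales: FPKM with 1 added (circles), the same after the GC and length fit was subtracted (squares), and count shares with 95% exact intervals (diamonds). The grey band spans -0.87 to 1.25, the middle 90% of the FPKM ratios of all genes, and dotted lines mark -1 and 1. SLC16A3 and SLC7A11 lie past the dotted lines on every scale shown.

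On the count-share scale 5 of the 10 genes had a ratio of 1 or more in size, SLC16A3, SLC2A3, SLC7A11, SLC38A1 and SLC38A2, against 17.2% of all genes. The first 2 were higher in the KD column, as were 7.20% of all genes (990), and the other 3 were lower, as were 10.02% (1377). On the FPKM scale the split of all genes was 1169 higher and 450 lower. With the count shares taken relative to their median over all genes, 3 of the 10 were 1 or more in size: SLC16A3 at 1.99, SLC2A3 at 1.93 and SLC7A11 at -2.50. SLC38A1 was then at -0.81 and SLC38A2 at -0.96.

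Base composition moved with the ratios. The longest transcript of each gene had a GC content from 35.4% in SLC7A11 to 62.7% in SLC16A3, which are also the genes with the lowest and the highest FPKM ratio. The 4 genes of lowest GC content, SLC7A11 (35.4%), SLC38A2 (37.4%), SLC38A1 (41.3%) and SLC16A1 (43.5%), were the 4 with a ratio below 0. Across the 10 genes, which share both columns and so are not independent points, Spearman's rho between GC content and the log2 FPKM ratio was 0.81, and it was 0.45 across 13298 genes with a GC content and length. In 4 groups of all genes by rising GC content the median log2 ratio was -0.24, -0.13, 0.09 and 0.47. The part of base composition in the ratios of single transporters was not tested beyond the fit described next.

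After a quadratic fit on GC content and log2 length was subtracted, SLC16A3 was at 1.38, above 98.0% of genes, and SLC7A11 at -1.29, with 1.74% of genes lower. SLC2A3 was at 1.03. These 3 of the 10 were 1 or more in size on that scale, against 8.79% of all genes, of which 5.02% were higher and 3.78% lower (667 and 502 genes). SLC38A2 was at -0.70, SLC38A1 at -0.56, SLC16A1 at -0.26 and SLC2A1 at 0.50. The ratio of SLC1A5 went to 0.07, and those of SLC7A5 (-0.19) and SLC3A2 (-0.12) turned below 0. The median of the 10 genes was then -0.16, against 0.20 without the correction, and rho between GC content and the ratio was 0.79 across the 10 genes.

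**Figure D3:**
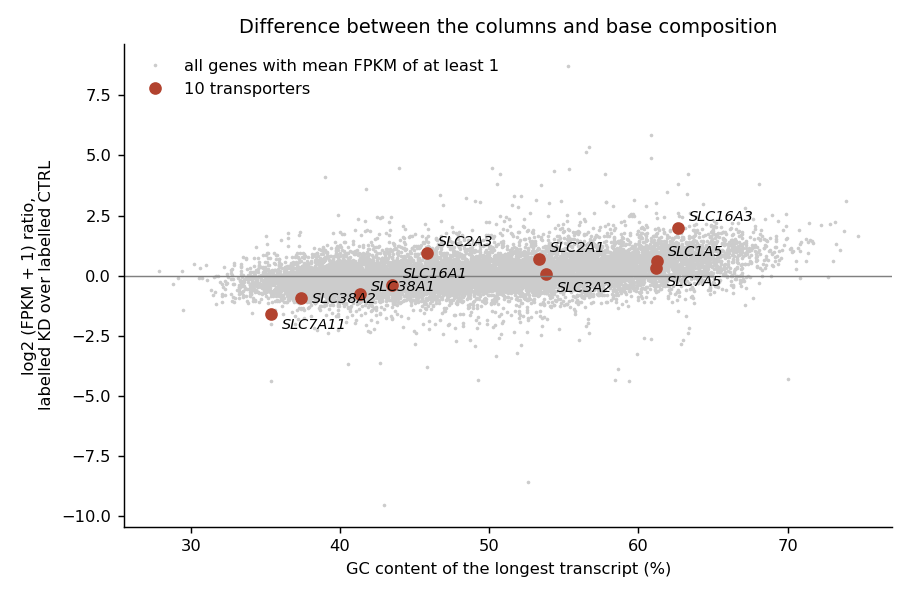
Log2 FPKM ratio of the KD column over the CTRL column against the GC content (%) of the longest transcript. Grey points are the 13298 genes above the minimum FPKM whose GC content is known, and red points are the 10 transporters. The cloud slopes upward, and SLC7A11 at 35.4% and SLC16A3 at 62.7% are the transporters of lowest and highest GC content.

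The rest of the 3 carrier families gave the following counts, beside 11.8% of all genes at 1 or more in size by FPKM ratio. With so few genes in each list, nothing is read from the counts about the families. Of 14 further glucose carriers, 5 passed the minimum FPKM and 0 of these had a log2 ratio of 1 or more in size; their median was 0.43. The most abundant were SLC2A6 (22.7 in the KD column and 16.3 in the CTRL column), SLC2A8 (11.3 and 8.66), both intracellular carriers, and SLC2A11 (6.03 and 3.18). Of 12 further SLC16 genes, 6 passed, with a median of 0.21. Among these SLC16A6 had an FPKM of 17.4 and 20.8, SLC16A5 had 7.92 and 7.09, and SLC16A9, a carnitine exporter, had 3.86 and 1.99. SLC16A7, which encodes the high-affinity carrier MCT2, was at 0.472 and 2.02, a log2 ratio of -1.04, from 26 and 53 counts. It was the only one of the 6 past 1, and after the GC and length fit was subtracted it was at -0.69.

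Of 39 further amino acid carriers, 17 passed, 6 with a ratio above 0 and 11 below. By FPKM ratio 0 were 1 or more in size, against 11.8% of all genes. Their median was -0.22. After the GC and length fit was subtracted 2 were past 1, SLC7A2 at 1.12 and SLC6A6 at -1.0003, against 8.79% of all genes. On the count-share scale 3 were, SLC6A6 at -1.28, SLC1A1 at -1.24 and SLC36A1 at -1.05, against 17.2% of all genes. SLC38A5, a glutamine carrier of the same family as SLC38A1, was the most abundant at 93.0 in the KD column and 109 in the CTRL column. SLC38A10 had 33.2 and 21.3, and SLC7A6, a further exchanger that pairs with SLC3A2, had 26.2 and 24.6. By the measure of Euclidean distance in log2 (FPKM + 1) over the 2 columns, the SLC genes nearest to SLC16A3 were SLC50A1, a sugar carrier, at a distance of 0.70 (131 and 65.3 FPKM), and SLC39A7, a zinc carrier, at 0.87 (136 and 76.4 FPKM).

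**Figure D4:**
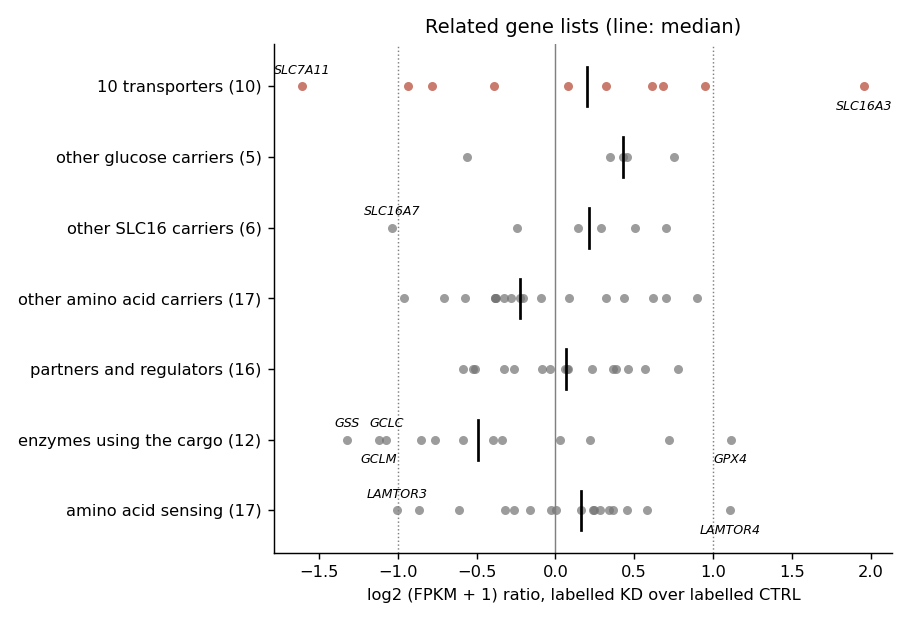
Log2 FPKM ratio of the KD column over the CTRL column for the 10 transporters (red) and for related lists of genes (grey), 1 point for each gene above the minimum FPKM and a line at the median of each list. Dotted lines mark -1 and 1, and genes past them are named. The enzymes that use the cargo have the lowest median, -0.49, and 4 of their 12 genes lie past the dotted lines, against 11.8% of all genes.

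Of 17 partners and regulators of the carriers, 16 passed. Of these, 0 had a log2 ratio of 1 or more in size, against 11.8% of all genes. Their median was 0.07. The most abundant were BSG, CD44 and ATF4, with the values above. TXNIP, an arrestin-like protein that removes GLUT1 from the membrane, had an FPKM of 56.3 in the KD column and 67.9 in the CTRL column, a log2 ratio of -0.27.

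Among 13 enzymes that use the transported cargo, 12 passed and 4 had a log2 ratio of 1 or more in size, 1 higher and 3 lower, with a median of -0.49. Over all genes 11.8% were 1 or more in size, 8.51% higher and 3.27% lower, and the list was chosen with earlier results of these data known. The 3 lower ones are the enzymes that make glutathione from the cysteine that SLC7A11 supplies as cystine. GCLC, the catalytic subunit of the first and rate-limiting enzyme, had an FPKM of 5.499 in the KD column and 12.7 in the CTRL column, a log2 ratio of -1.07. GCLM, its modifier subunit, had 3.60 and 8.98, a ratio of -1.12. GSS, which completes the tripeptide, had 33.4 and 85.0, a ratio of -1.32. All 3 were lower in the KD column, as was SLC7A11.

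GPX4, the peroxidase that uses glutathione to reduce lipid peroxides, lay in the other direction at 655 in the KD column and 302 in the CTRL column, a ratio of 1.11. After the GC and length fit was subtracted, GSS was at -1.54 and was the only one of the 12 past 1, against 8.79% of all genes. GCLC was then at -0.97, GCLM at -0.89 and GPX4 at 0.48. On the count-share scale GCLC, GCLM and GSS were at -1.28, -1.50 and -1.58, and GPX4 was at 0.96.

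On the lactate side, LDHA, which reduces pyruvate to lactate, had an FPKM of 1217 in the KD column and 2064 in the CTRL column, a log2 ratio of -0.76. LDHB, the subunit that favours the reverse reaction, had 1107 and 1401, a ratio of -0.34. HK1, which traps glucose in the cell by phosphorylation, had 61.5 and 92.8, a ratio of -0.59. HK2, the other hexokinase of the list, had 3.89 and 3.19, a ratio of 0.22. By FPKM LDHA, LDHB and HK1 were lower in the KD column. The raw counts of LDHB were 14164 in the KD column and 12916 in the CTRL column, before division by the column totals. Its count-share ratio was -0.10 (-0.13 to -0.06), against a median of -0.21 over all genes. SLC2A1 and SLC16A3 were higher in the KD column on all scales used. ASNS, the asparagine synthetase, had 19.0 and 35.0, a ratio of -0.85.

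**Figure D5:**
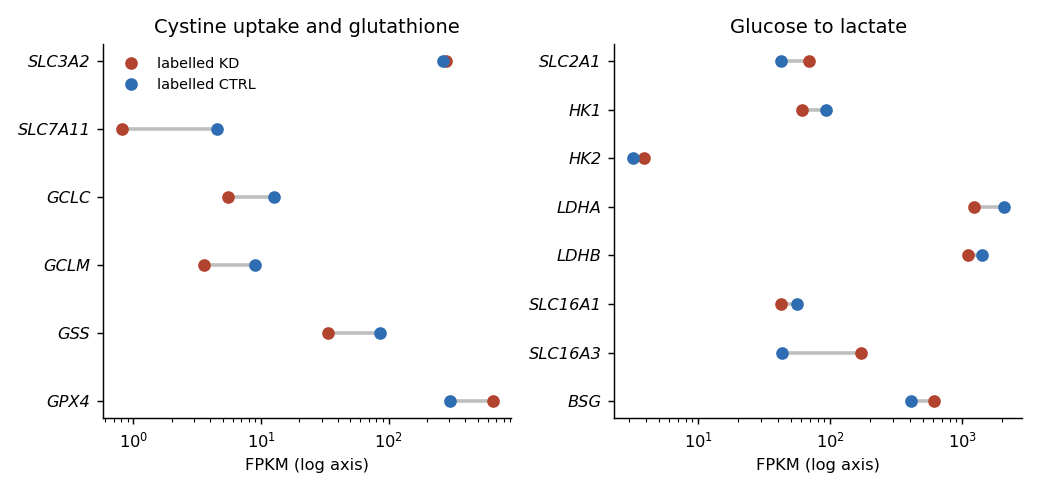
FPKM on a log axis in the KD column (red) and the CTRL column (blue) for genes of cystine uptake and glutathione (left) and of the route from glucose to lactate (right). On the left, SLC7A11, GCLC, GCLM and GSS are lower and GPX4 is higher in the KD column. On the right, SLC2A1, HK2, SLC16A3 and BSG are higher and HK1, LDHA, LDHB and SLC16A1 are lower.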

How the data were processed

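RNA-seq libraries came from 6 pools of K562 cells, 3 per group. Per the labels and the study's methods, the authors mapped reads with TopHat 1.4.1 to hg19 and Ensembl transcripts and computed FPKM with Cuffdiff 2.2.0, and they deposited 1 FPKM and 1 estimated count per gene and group. How libraries were combined is not given in the sources used here. Columns of averages and extremes, and the authors' own fold changes, p-values and FDR, were not used. The members and lists were chosen with earlier results of these data known. The genes named are the 10 carriers, list genes past a log2 ratio of 1, the 3 most abundant of each list, the direct partners, the targeted genes and the 2 SLC genes nearest to SLC16A3. Marker lists are given by counts. Some genes under the rule are not reported here. The regulators and enzymes discussed with them (HIF1A, MYC, NFE2L2, HK1, HK2, ASNS, SLC7A2, SLC6A6, SLC1A1 and SLC36A1) were picked from those lists after their values were seen.

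Ratios used FPKM with a pseudocount of 1 at a mean FPKM of at least 1. Estimated counts were rounded for exact binomial (Clopper-Pearson) and Poisson intervals at 95%. Gene models, GC content and length (longest transcript, 96.8% of genes) came from GENCODE release 44 on GRCh37, and promoters from RefSeq on GRCh38.p14. Printed hg19 coordinates are those of these models. The loci deposited with the values have another start or end in some genes, such as SLC1A5, SLC7A11, SLC2A3 and SLC16A3. With 1 value per group, no p-value was computed. Column totals were 13699340 (KD) and 11680567 (CTRL) counts. The functions were tested on simulated data. Alternatives were a pseudocount of 0.1, no filter, a mean FPKM of at least 5, counts divided by column totals, trend removal and centring. The scripts ran in Python 3.11.15 with matplotlib 3.10.9, scipy 1.17.1, pandas 2.3.3 and numpy 2.4.6.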

Additional observations from a re-analysis of the deposited data

How the results depend on the processing

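SLC16A3 stayed above 1 and SLC7A11 below -1 in log2 ratio in each of the 5 alternatives computed for single genes, from 1.38 to 1.99 and from -2.71 to -1.29. SLC2A3 ranged from 0.94 to 1.93 and passed 1 in 4 of the 5. The sign differed from the FPKM value for SLC7A5 and SLC3A2 with the GC and length trend removed, and for no other transporter in these alternatives. Of 50 such values, 23 moved by more than the counting interval. These include every transporter with counts divided by column totals, a division that lowers each log2 ratio by the same amount. The number of transporters past 1, 2 on the FPKM scale, was 5 with counts divided by column totals and 3 when these were centred on their median. It was also 3 with the trend removed, and 3 with a pseudocount of 0.1, where SLC2A3 was at 1.43. It was 1 at a minimum mean FPKM of 5, where SLC7A11 and SLC2A3 fell under the minimum. The count over all genes moved with the setting too. It was 1619 of 13741 on the FPKM scale, 2340 with a pseudocount of 0.1 and 2367 with counts divided by column totals. It was 2327 when these were centred, 1169 of 13298 with the trend removed and 1092 at a minimum of 5. Nothing about the transporters as a group is read from these counts.

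The share of all genes past 1 that were higher in the KD column was 72.2%. It was 66.2% with a pseudocount of 0.1, 41.8% with counts divided by column totals, 63.5% when these were centred on their median (chosen after seeing the data), 57.1% with the trend removed, 68.6% without a filter and 78.3% at a minimum of 5. The cause was not tested.

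No paired analysis was possible because each group has a single value per gene, with no replicate block to fit, and leaving out single libraries was not run for the same reason. Counting error limits SLC2A3 most, with 34 counts in the CTRL column.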

Other observations

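Across the whole SLC superfamily, 165 of the 336 genes in the table were above the minimum FPKM, and 12 of these were 1 or more in size in log2 FPKM ratio, 5 higher and 7 lower in the KD column (7.27%, against 11.8% of all genes). Besides SLC16A3 the higher ones included SLC25A29, which carries basic amino acids into mitochondria (41.1 and 12.7 FPKM, ratio 1.62), and the fatty acid carriers SLC27A2 (48.5 and 22.4, ratio 1.08) and SLC27A6 (4.29 and 1.27, ratio 1.22). Besides SLC7A11 the lower ones included SLC20A1, a phosphate importer (25.3 and 59.7, ratio -1.21), SLC30A7, a zinc carrier of the Golgi (4.66 and 11.1, ratio -1.10), and SLC25A15, which exchanges ornithine and citrulline across the mitochondrial membrane (2.08 and 5.28, ratio -1.02). These genes were named after their values were seen.

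Of 19 genes through which mTORC1 senses amino acids, 17 passed the minimum, with a median log2 ratio of 0.16 and 2 past 1, against 11.8% of all genes. LAMTOR4 was higher in the KD column, at 246 and 113 FPKM (ratio 1.11), and LAMTOR3, a subunit of the same lysosomal scaffold, was lower, at 10.4 and 21.8 (ratio -1.002). After the GC and length fit was subtracted, 0 of the 17 were past 1, against 8.79% of all genes. Of the other subunits of that scaffold, LAMTOR5 had 349 and 348 FPKM and LAMTOR2 had 212 and 155.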
